A study of Triticum aestivum with 18 samples.

Results

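Transcript levels of 2 wheat genes, TraesCS4D02G358100 on chromosome 4D (the 4D gene) and TraesCS4B02G381800 on chromosome 4B (the 4B gene), were followed through roots and leaves of salt-treated seedlings. Both were chosen by identifier because the study calls them metacaspase-1-like, and they are 2 of the 134610 genes in the table. The sources used here place the 4D gene at 506050808 to 506053015 and the 4B gene at 661304015 to 661306150, both on the plus strand, in the Chinese Spring assembly with the Ensembl Plants release 45 annotation. Their gene models are 1536 and 1467 bases long, and the table gives each a Peptidase_C14 (caspase) domain and no description. The domain fits the family name, but it does not separate metacaspase-1 from other metacaspases.

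Metacaspases are cysteine proteases of plants, fungi and protists that are distantly related to animal caspases and cut after arginine or lysine. In Arabidopsis, MC1 promotes the cell death of the hypersensitive response, the zinc finger protein LSD1 holds it back, and MC1 also takes part in clearing protein aggregates. 3-methyladenine (3-MA) blocks the phosphatidylinositol 3-kinase that autophagosomes need in order to form.

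Seedlings of Jimai 22, a salt-tolerant variety, were grown in dilute nutrient solution. The control roots (CG) and control leaves (CY) received no NaCl, TG and TY were roots and leaves given 150 mM NaCl, and TMG and TMY were roots and leaves given 5 mM 3-MA in addition, 5 h ahead of the NaCl. Tissue was taken after 4 days, the leaf sampled being the third, with 10 roots or leaves pooled per replicate and 3 libraries per group. No library with 3-MA alone was analysed here, so each 3-MA comparison was made under salt.

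The 18 libraries held 27156078 to 33150906 counts on genes (median 30324868). Summed chlorophyll a-b binding protein genes, which mark green leaf cells, ranged from 18.1 to 420 CPM (counts relative to each library's total, corrected by TMM factors from all 18 libraries) in root libraries and from 8091 to 94119 CPM in leaf libraries. The gene described as a high-affinity nitrate transporter component, a root marker, was at 4.55 to 22.0 CPM in root libraries and had no counts in leaf libraries. The Casparian strip gene did not separate the tissues, at 0.183 to 0.714 CPM in root libraries and 0 to 0.639 CPM in leaf libraries.

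The primers that the study used for quantitative RT-PCR are shown because no other sequence for the 2 genes was available here. They are printed 5′ to 3′, in lower case with no base marked.
4D gene forward: gaacgtgacggcatggac
4D gene reverse: tggtatgggagatcgaggac
4B gene forward: agtatgggtgcttgaggtgg
4B gene reverse: tgggtctttccgttgctg
The primers are 18 to 20 bases long with a GC content of 55% to 61.1%, and each gene has a primer pair of its own. Whether each pair amplifies only its own gene was not checked. The RNA-seq values rest on reads over the whole gene model. How reads that match near-identical copies were assigned is not given in the sources used here, so the split of reads between the 4D gene, the 4B gene and other close copies is uncertain.

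In roots, both genes were higher with salt and far lower with 3-MA under salt. The 4D gene had 192, 173 and 308 counts in CG replicates 1 to 3, 1903, 1703 and 1248 counts in TG, and 14, 42 and 39 counts in TMG. All TG libraries lay above the CG libraries, and all TMG libraries lay below them. As CPM, the mean was 7.85 ± 3.18 in CG, 43.5 ± 7.72 in TG and 0.804 ± 0.367 in TMG (SD, n = 3). The 4B gene had 21, 39 and 8 counts in CG, 171, 132 and 88 in TG, and 2, 1 and 5 in TMG. Its groups were ordered in the same way without overlap, at means of 0.778 ± 0.560 CPM, 3.49 ± 0.993 CPM and 0.0702 ± 0.0559 CPM (SD, n = 3).

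**Figure D1:**
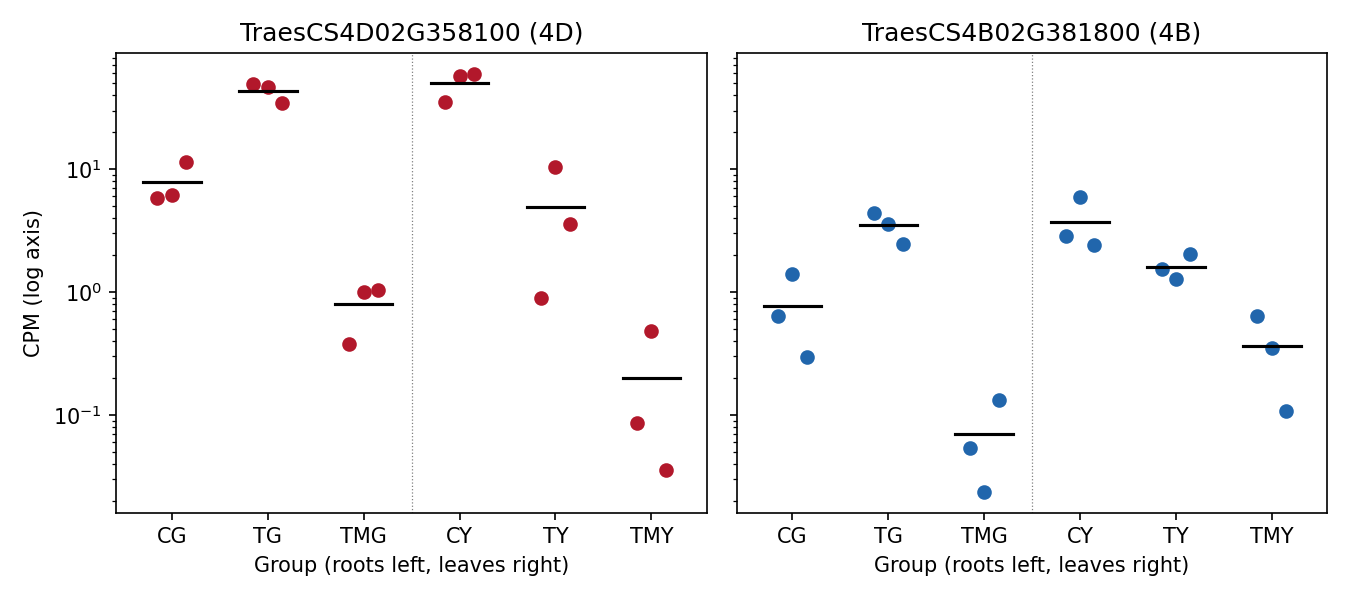
Each point is the CPM of 1 library on a log axis, with the 4D gene in the left panel and the 4B gene in the right panel, and the horizontal bars are means of 3 libraries. The highest libraries of both genes are in TG and CY, the lowest of the 4B gene are in TMG, and the lowest of the 4D gene are in TMY.

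From CG to TG the fitted log2 fold change (SE) was 2.50 (0.28) for the 4D gene and 2.19 (0.48) for the 4B gene, or 5.66-fold and 4.57-fold. These values are a description with no p, because the study took both genes from its differentially expressed genes and lists them for roots, without stating the comparison they were picked on. Without CG replicate 2 the 4B value was 2.88. Of the 73066 genes tested in that comparison, 35.6% were called, which here and below means that edgeR's quasi-likelihood test gave a p of at most 0.05 after Benjamini-Hochberg adjustment, and 51.3% had groups without overlap. From TG to TMG, which shares the TG libraries, the 4D gene fell by 5.74 on the log2 scale (SE 0.32, edgeR adjusted p = 0.000112), a 53.5-fold difference. The 4B gene fell by 5.60 (SE 0.47, edgeR adjusted p = 0.000323), a 48.5-fold difference that rests on 1 to 5 counts per TMG library and was -6.39 on the log2 scale without TMG replicate 3. In TMG vs TG, 12.0% of 73651 tested genes were called lower, and the 4D and 4B genes ranked 177 and 190 from the lowest log2 fold change. The groups did not overlap for 41.4% of those genes. TMG vs TG was also one of the study's root comparisons and may have been the one the genes were picked on. Picking genes that are high in TG would also favour a fall from TG. These p-values and ranks may therefore not be independent of the pick. Other comparisons that use CG, TG or TMG share those libraries, and their p-values may likewise not be independent of the pick. The paper describes its RT-PCR genes for roots and leaves together, so leaf comparisons may also have entered the pick. The leaf p-values and ranks below carry that limit.

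Against control roots the 4D gene fell by 3.24 on the log2 scale in TMG (SE 0.36, edgeR adjusted p = 1.84e-05), a comparison in which 28.5% of genes were called lower and 64.7% had groups without overlap. The 4B gene had too few counts to pass edgeR's filter in TMG vs CG and was not tested, although every TMG library (0.0238 to 0.132 CPM) lay below every CG library (0.299 to 1.39 CPM). In these bulk samples, fewer cells of a type and less RNA per cell cannot be told apart. The chlorophyll a-b binding sum in roots fell in step from CG (258 to 420 CPM) to TG (60.8 to 101 CPM) and TMG (18.1 to 24.5 CPM), whereas both metacaspase genes were highest in TG, and its part in the result was not tested.

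In leaves the direction with salt was the opposite, with both genes at their highest mean in control leaves. The 4D gene had 665, 1207 and 1149 counts in CY replicates 1 to 3, 25, 288 and 100 in TY, and 3, 15 and 1 in TMY. The TY libraries were spread over more than a factor of 10, from 0.899 to 10.4 CPM, yet all lay below CY (35.0 to 59.6 CPM) and above TMY (0.0357 to 0.479 CPM). The means were 50.5 ± 13.5 CPM in CY, 4.96 ± 4.92 CPM in TY and 0.201 ± 0.243 CPM in TMY (SD, n = 3). The 4B gene had 54, 125 and 47 counts in CY, 43, 35 and 57 in TY, and 22, 11 and 3 in TMY. Its groups did not overlap after scaling either, at 3.73 ± 1.90 CPM, 1.61 ± 0.383 CPM and 0.364 ± 0.264 CPM (SD, n = 3), but the steps were smaller than those of the 4D gene.

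From CY to TY the 4D gene fell by 3.29 on the log2 scale (SE 0.68, edgeR adjusted p = 0.0112), 9.76-fold, and ranked 397 from the lowest of 62945 genes. Without TY replicate 2, the TY library with the highest level, the log2 fold change was -4.44, and over all left-out libraries it was -4.44 to -2.79. The 4B gene had a log2 fold change of -1.16 (SE 0.39, edgeR adjusted p = 0.0651) and was not called, with 13.2% of all genes called lower. Groups did not overlap for 43.1% of genes in that comparison. The call on the 4B gene was made by DESeq2 (adjusted p = 0.0420) and by edgeR without CY replicate 3 (log2 fold change -1.40, adjusted p = 0.0447), and without CY replicate 2 the log2 fold change was -0.65.

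With 3-MA under salt, the 4D gene fell in leaves by 4.55 on the log2 scale (SE 1.04, edgeR adjusted p = 0.0205), 23.4-fold, and the 4B gene fell by 2.05 (SE 0.55, edgeR adjusted p = 0.0366), 4.14-fold. In TMY vs TY, 9.94% of 64867 genes were called lower and 38.5% had groups that did not overlap. The 4D call was lost without TY replicate 2 (log2 fold change -3.39, adjusted p = 0.0638), TMY replicate 1 (-4.15, adjusted p = 0.0903) or TMY replicate 3 (-4.09, adjusted p = 0.0684), and the value was -6.11 without TMY replicate 2. The 4B call held only without TMY replicate 1 (-2.72, adjusted p = 0.0403) and was lost without each other library, with log2 fold changes of -2.09, -2.20 and -1.87 without TY replicates 1, 2 and 3 and -1.97 and -1.63 without TMY replicates 2 and 3. The adjusted p over these 5 was 0.0589 to 0.115.

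Over both treatments together, from CY to TMY, the 4D gene fell by 7.86 on the log2 scale (SE 0.60, edgeR adjusted p = 0.000110), and the 4B gene fell by 3.24 (SE 0.60, edgeR adjusted p = 0.00397). Without TMY replicate 2 the 4D value was -9.44, and without TMY replicate 1 the 4B value was -3.91. In this comparison 20.6% of genes were called lower and 51.8% had groups without overlap. The chlorophyll a-b binding sum moved the same way in leaves, from 47609 to 94119 CPM in CY to 19895 to 24004 CPM in TY and 8091 to 13444 CPM in TMY, as did the Rubisco small chain genes (42659 to 108891, 17232 to 20329 and 7059 to 14396 CPM). Their part in the leaf results was not tested. All 98 chlorophyll a-b binding genes entered the sum, and 93 of them had counts in leaves.

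**Figure D2:**
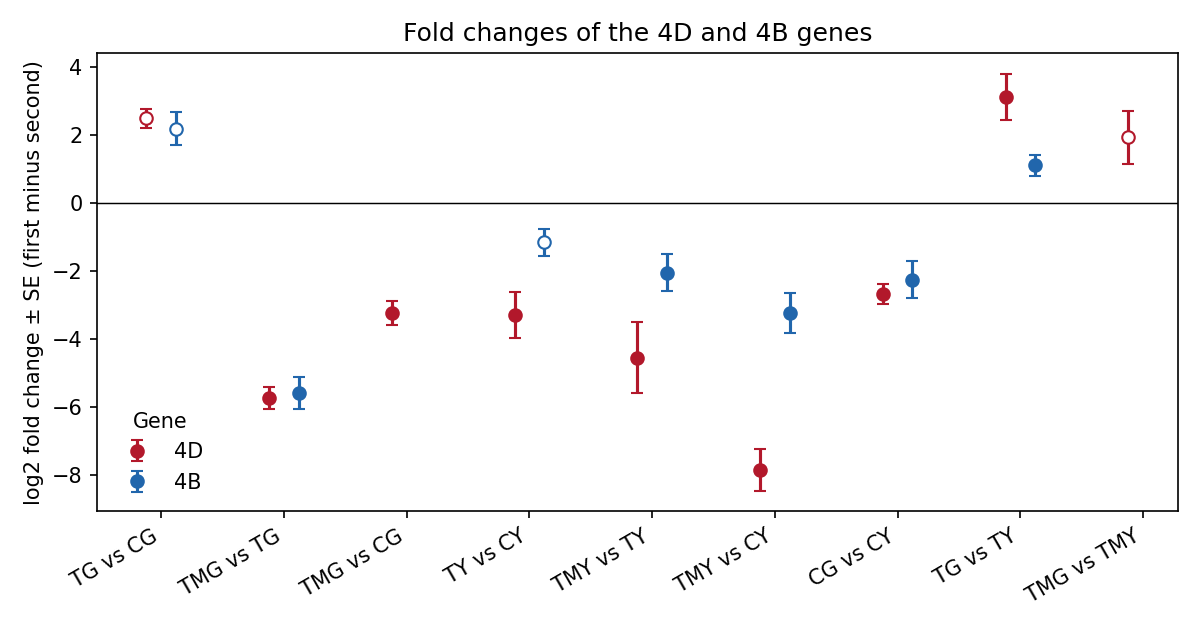
Points are log2 fold changes from edgeR with the SE as bars, first group minus second, for the 4D gene (red) and the 4B gene (blue). Filled points were called at an adjusted p of 0.05, and open points were not called or, in TG vs CG, are given with no test. The 4B gene has no point in TMG vs CG and TMG vs TMY. The genes share the direction in every comparison with both, and the 4B gene is nearer to 0 in the leaf comparisons.

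Between tissues, CG was below CY for both genes, with log2 fold changes of -2.68 for the 4D gene (SE 0.30, edgeR adjusted p = 2.57e-05) and -2.26 for the 4B gene (SE 0.54, edgeR adjusted p = 0.00398). Under salt the order turned, with log2 fold changes of TG against TY of 3.12 for the 4D gene (SE 0.68, edgeR adjusted p = 0.00384) and 1.11 for the 4B gene (SE 0.31, edgeR adjusted p = 0.0132). Without TY replicate 2 the 4D value in TG vs TY was 4.25, and without CG replicate 2 the 4B value in CG vs CY was -2.95. Of all genes, 29.3% were called lower in CG vs CY and 35.6% higher in TG vs TY, and 71.9% and 71.3% had groups without overlap. A pick of genes low in CG and high in TG would favour both results, so their p-values may not be independent of the pick. With 3-MA and salt, the 4D gene had a log2 fold change of TMG against TMY of 1.93 (SE 0.77, edgeR adjusted p = 0.0589), which was not called and in which the libraries overlapped, with 33.0% of genes called higher. The 4B gene was not tested there for its low counts.

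The salt change differed between roots and leaves by 5.76 on the log2 scale (SE 0.84) for the 4D gene and 3.33 (SE 0.68) for the 4B gene, given with no p because the root comparison may have been used to pick the genes. They were 6.97 for the 4D gene without TY replicate 2 and 4.02 for the 4B gene without CG replicate 2. The 3-MA change differed between tissues for the 4B gene, which was lowered more in roots, with an interaction of -3.63 (SE 0.81, edgeR adjusted p = 0.0162), where 7.12% of genes were called in that direction. That call was lost without TMG replicate 1 (-3.49, adjusted p = 0.0501), TMG replicate 2 (-3.21, adjusted p = 0.0512) or TMY replicate 1 (-2.94, adjusted p = 0.0548), and the value was -4.42 without TMG replicate 3. TMG vs TG may also have been used to pick the genes, so the p of this interaction may not be independent of the pick. For the 4D gene the difference was -1.28 (SE 1.30, edgeR adjusted p = 0.597), which leaves room for a difference in either direction.

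Ordered by mean CPM, the 4D gene stood at CY, TG, CG, TY, TMG and TMY. Every pair of neighbours in this order overlapped except TG and CG. The 4B gene stood at CY, TG, TY, CG, TMY and TMG, where every pair of neighbours overlapped except TG and TY. Replicates of a group are separate pools of 10 organs, and the p-values set differences between groups against the spread between such pools.

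Per length, the 4D gene was the more abundant of the 2 in roots and control leaves, and the order varied between libraries in TY and TMY. Its mean FPKM was 5.23 in CG, 28.5 in TG, 0.507 in TMG, 32.1 in CY, 3.13 in TY and 0.126 in TMY, against 0.539, 2.39, 0.0463, 2.48, 1.07 and 0.240 for the 4B gene. The 4D gene exceeded the 4B gene in 15 of 18 libraries, the exceptions being TY replicate 1 and TMY replicates 1 and 3. It made up 80.9% to 97.6% of the summed FPKM of the pair in every root and control leaf library, and 35.7%, 88.7% and 62.6% in TY and 11.5%, 56.6% and 24.1% in TMY.

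**Figure D3:**
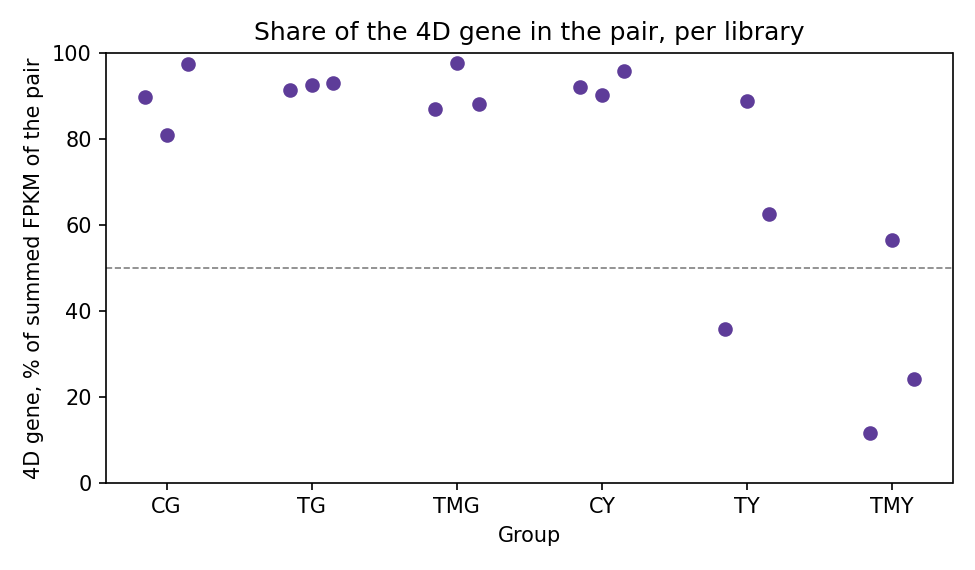
Each point is the FPKM of the 4D gene as a percent of the FPKM of the 4D and 4B genes together in 1 library, with a dashed line at equal shares. The root and CY libraries lie between 80.9% and 97.6%, and the TY and TMY libraries spread from 11.5% to 88.7%.

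As log2(FPKM + 1), the 4D gene minus the 4B gene was 1.99 ± 0.77 in CG, 3.12 ± 0.07 in TG, 0.51 ± 0.22 in TMG, 3.27 ± 0.53 in CY, 0.72 ± 1.22 in TY and -0.14 ± 0.26 in TMY (SD, n = 3). An exact two-sided permutation test of this difference between groups gave p = 0.1 in 8 of 9 comparisons, the smallest value that 3 against 3 libraries allow, and 0.3 for TMY vs TY. The values adjusted over the 9 comparisons were 0.1125 and 0.3. No comparison of this size can pass 0.05, so the test does not bear on whether the difference changed. With a pseudocount of 1 the difference is pulled to 0 where both genes are low, and on log2 CPM the TMG difference was 3.72, close to the 3.54 in CG.

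The table held 38 genes with a Peptidase_C14 domain, 36 besides these. The FPKM of all 38, with the 4D and 4B genes included, summed to 370 in CG, 550 in TG and 179 in TMG, and to 1411 in CY, 757 in TY and 304 in TMY. By mean FPKM the 4D gene ranked 18 of 38 in CG, 7 in TG, 25 in TMG, 7 in CY, 18 in TY and 30 in TMY. Its share of the family sum was 1.38% in CG, 5.15% in TG and 0.280% in TMG, and 2.26% in CY, 0.367% in TY and 0.0406% in TMY. The 4B gene ranked between 21 and 36. Thus neither gene was the most abundant family member in any group, a place held by TraesCS4D02G358800 in CG and TG, TraesCS3D02G322600 in TMG and TraesCS3B02G471700 in leaves.

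Counts of genes that rose or fell, here and in the lists below, are of called genes. Among the other family members, 13 of 34 tested rose and 4 fell in TG vs CG, with a median log2 fold change of 0.68 against 0.03 over all genes, of which 18.5% were called higher and 17.1% lower. In TMG vs TG, 18 of 34 fell and 3 rose, with a median of -1.38 against -0.01 over all genes, of which 12.0% were called lower and 8.16% higher. In TY vs CY, 13 of 28 fell and 1 rose, with a median of -0.64 against 0.02 over all genes, of which 13.2% were called lower and 10.1% higher. In TMY vs TY, 12 of 25 fell and 0 rose by edgeR, with a median of -0.97 against 0.00 over all genes, of which 9.94% were called lower and 8.44% higher. At an unadjusted p of 0.05 in edgeR, 2 were higher there, and DESeq2 and limma called 0 higher. Without TG replicate 2 the TG vs CG count was 11 in place of 17, without TMY replicate 1 the TMY vs TY count was 7 in place of 12, and the TY vs CY count of 14 was 7, 7 and 8 without CY replicate 3, TY replicate 1 and TY replicate 3.

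**Figure D4:**
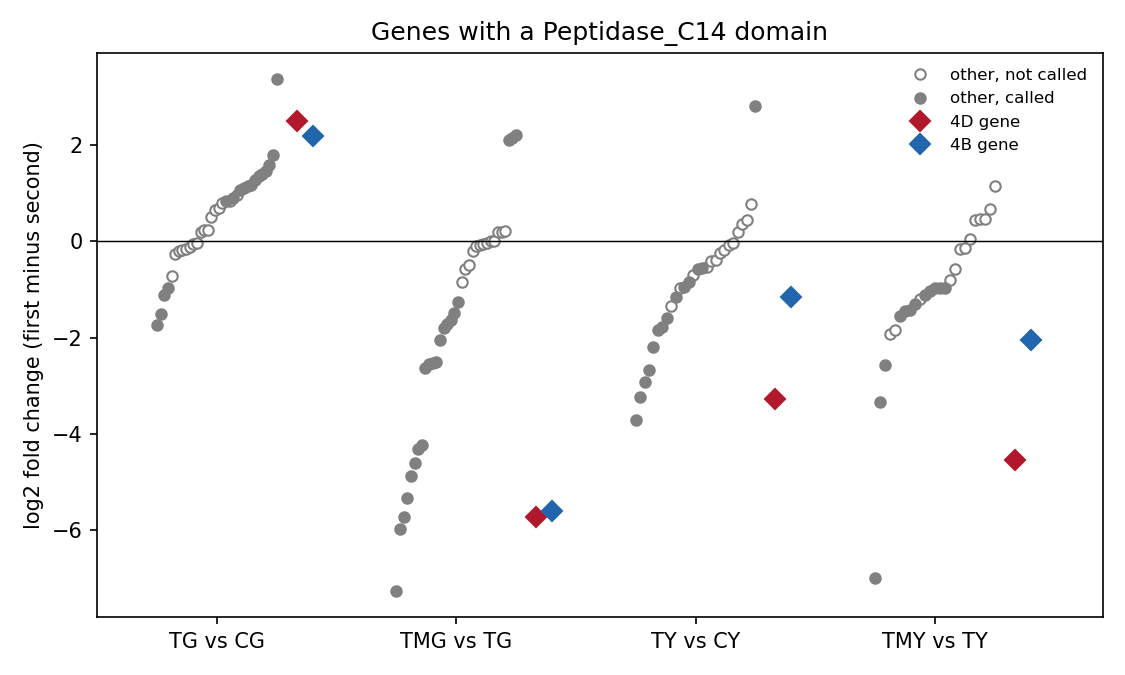
Each circle is the log2 fold change of 1 of the other tested genes with a Peptidase_C14 domain, sorted by value within a comparison and filled where called, and diamonds are the 4D and 4B genes. In TMG vs TG the diamonds lie among the lowest circles, and the lowest circle in TMY vs TY belongs to a gene with no counts in TMY, whose fitted value is no bound.

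The family members nearest to the pair by position, and 2 of the 4 on chromosome 5A, also fell steeply with 3-MA in roots. TraesCS4D02G358800, which lies on 4D at 506285006 to 506287456 on the minus strand, had a mean of 129 ± 35.8 CPM in CG, 198 ± 35.6 in TG and 3.13 ± 0.965 in TMG (SD, n = 3). It fell by 5.98 from TG to TMG (SE 0.28, edgeR adjusted p = 9.38e-05), and its log2 fold change in TG vs CG was 0.65 (adjusted p = 0.0546, not called). TraesCS4B02G383100, at 662419077 to 662421508 on 4B, fell by 5.34 (SE 0.30) and had risen by 1.08 with salt. On 5A, TraesCS5A02G548600 fell by 7.28 (SE 0.18, edgeR adjusted p = 8.34e-06), the largest fall of the family in that comparison, and TraesCS5A02G548200 fell by 5.74 (SE 0.16). These genes had risen with salt by 1.58 and 1.47. None of the 4 is a neighbour of the pair within 2 genes.

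In leaves the same 4 genes fell with salt, by 1.60 for TraesCS4D02G358800, 2.20 for TraesCS4B02G383100, 1.84 for TraesCS5A02G548600 and 3.71 for TraesCS5A02G548200, the last being the largest fall of the family. In TMY vs TY, TraesCS5A02G548600 fell by 3.35, TraesCS4D02G358800 by 2.56 and TraesCS4B02G383100 by 1.31, whereas TraesCS5A02G548200 had a log2 fold change of -0.81 (edgeR adjusted p = 0.372).

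The other members on these chromosomes were more varied. TraesCS4A02G243300 had no counts in any leaf library and fell by 4.24 from TG to TMG. TraesCS4D02G070500 fell by 4.62 in TMG vs TG and had no counts in TMY, against 0.551 ± 0.182 CPM in TY (SD, n = 3). TraesCS4B02G071900 fell by 1.80 and TraesCS5A02G091300 by 1.63 in TMG vs TG. TraesCS5A02G091300 gave the only rise that was called among the other members in TY vs CY, of 2.81 on the log2 scale. TraesCS5A02G139900 went the other way in roots, with -1.12 in TG vs CG and a rise of 2.21 from 3.44 ± 0.489 CPM in TG to 15.9 ± 2.07 CPM in TMG (SD, n = 3). In TG vs CG the largest rise of the other members was that of TraesCS3D02G430000 (3.39) and the largest fall that of TraesCS5B02G137300 (-1.74).

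Other lists of genes tied to plant cell death were counted in the same way. The list of 15 genes for LSD1-type zinc finger proteins does not separate LSD1, which restrains MC1 in Arabidopsis, from its relatives. Of these genes, 7 fell and 0 rose in TG vs CG, where 17.1% of all genes were called lower and 18.5% higher. In TMG vs TG, 4 rose and 1 fell (8.16% of all genes higher, 12.0% lower), and in TY vs CY, 11 fell and 1 rose (13.2% lower, 10.1% higher). In TMY vs TY edgeR called 0 of the 15, with 2 higher at an unadjusted p of 0.05, 0 called by DESeq2 and 1 called higher by limma. In TG vs CG 1 was higher at an unadjusted p of 0.05 and neither DESeq2 nor limma called any higher. Both genes for Bax inhibitor 1, an endoplasmic reticulum protein that restrains cell death, fell with salt in roots and in leaves. Over all genes, 17.1% were called lower in TG vs CG and 13.2% in TY vs CY. TraesCS6A02G083200 went from 171 ± 15.4 CPM in CG to 47.4 ± 5.09 CPM in TG (SD, n = 3; log2 fold change -1.82, edgeR adjusted p = 0.000147). In TMG vs TG edgeR called 0 of the 2, with 0 at an unadjusted p of 0.05 and 0 by DESeq2 and limma. In TMY vs TY, TraesCS6A02G083200 rose by 1.99 (edgeR adjusted p = 0.0288), where 8.44% of all genes were called higher. Its mean went from 7.97 ± 1.40 CPM in TY to 30.2 ± 18.3 CPM in TMY (SD, n = 3). The other gene was not called there.

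Of the vacuolar processing enzymes, proteases with caspase-like activity, 3 of 4 genes were tested, and 2 rose in TG vs CG (18.5% over all genes). In TMG vs TG, TY vs CY and TMY vs TY, edgeR, DESeq2 and limma each called 0 of them, and 1, 0 and 1 were higher at an unadjusted p of 0.05 in edgeR. Of 125 serpin genes, protease inhibitors of which 1 is known to block metacaspases in Arabidopsis, few had enough counts to be tested. In TG vs CG 4 of 21 were higher and 2 lower, near the 18.5% and 17.1% over all genes, and in TMG vs TG 4 of 26 were higher (8.16% over all genes). In leaves 1 of 11 was lower in TY vs CY (13.2% over all genes) and 1 of 11 higher in TMY vs TY (8.44% over all genes). For the Tudor staphylococcal nuclease, a metacaspase substrate in spruce, 1 of 4 genes was tested in TG vs CG and TMG vs TG, and 2 in TY vs CY and TMY vs TY. A gene on 4B that the authors added to the annotation rose by 0.84 in TG vs CG and 0.98 in TY vs CY. Its edgeR adjusted p was 0.0132 and 0.0396, where 18.5% and 10.1% of all genes were called higher. This gene fell by 1.26 in TMG vs TG and 1.80 in TMY vs TY. There its edgeR adjusted p was 0.00286 and 0.0203, with 12.0% and 9.94% of all genes called lower. The second gene tested in the leaf comparisons was not called in either.

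Pearson's r of log2 CPM over the 18 libraries, given as a description over 82125 genes in libraries that share tissue and treatment, was 0.77 between the 4D and 4B genes. Genes closest to the 4D gene were TraesCS6B02G092200 (0.951) and TraesCS6D02G065900 (0.943), both described as gamma-glutamylcyclotransferase, which breaks down gamma-glutamyl peptides, followed by TraesCS4D02G366300 (0.929), a gene on 3B added by the authors (0.928) and TraesCS3B02G127200 (0.927), a profilin. Their changes were smaller, with log2 fold changes of -0.80 and -1.14 in TMG vs TG for the first pair. Genes closest to the 4B gene were TraesCS4D02G217400 (0.928), TraesCS1D02G207600 (0.901), TraesCS5A02G548600 (0.898), TraesCS4D02G358800 (0.897) and TraesCS3D02G134800 (0.896), so 2 of the 5 carry the Peptidase_C14 domain.

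Of the 8 genes next to the members, those on 4D had few or no counts, and 2 on 4B had more counts than the 4B gene itself. On 4D, TraesCS4D02G358000, described as a dirigent protein, had 0 counts in all libraries, and TraesCS4D02G357900, TraesCS4D02G358200 and TraesCS4D02G358300 had 414, 85 and 19 counts over all 18 libraries, against 9075 for the 4D gene. TraesCS4D02G357900 fell by 3.60 in TG vs CG (edgeR adjusted p = 0.0280). On 4B, TraesCS4B02G381900, with a PP2C domain, had 0 counts and TraesCS4B02G381700 had 3, against 864 for the 4B gene. TraesCS4B02G382000 was not called in TG vs CG, TMG vs TG, TY vs CY or TMY vs TY, and a gene added by the authors, at 661233052 to 661236108, rose by 1.30 in TG vs CG, fell by 0.52 in TMG vs TG and rose by 1.61 in TY vs CY.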

How the data were processed

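RNA-seq counts from 18 libraries were deposited by the authors as raw counts per gene, from paired 150 bp reads mapped to the Chinese Spring assembly. FPKM values were deposited by the authors for the same genes. The submitters' processing notes name HISAT2 2.0.5 and Bowtie 0.12.2 without a role, and the counter is not given in the sources used here. Those notes also list a mouse genome build, whereas the study names the Chinese Spring assembly and the genes carry wheat identifiers. The log2 fold changes and p-values of the authors' own comparisons were not used.

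Counts were tested over all genes, 2 groups at a time, with edgeR 4.0.16 in R 4.3.3 (filterByExpr, TMM, quasi-likelihood test, Benjamini-Hochberg adjustment over all tested genes, threshold 0.05). Differences between tissues were interaction terms. SE is the log2 fold change divided by the root of F. CPM used TMM factors over all libraries. Levels of different genes were compared as FPKM, with a pseudocount of 1 on the log2 scale and an exact permutation test. Fits were tested on simulated data. Alternatives were DESeq2 1.42.0, limma 3.58.1 on log2(FPKM + 1), RLE factors, library size only, no filter or a filter of CPM 1 in 3 libraries, 6 groups in one fit, a replicate block, a pseudocount of 0.1, CPM for the pair and each library left out. Tables were read with the data.table package in its version 1.17.8.

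The members and gene lists were chosen with earlier results of these data known. Named genes were the members, Peptidase_C14 genes on 4A, 4B, 4D and 5A and the family's largest called rise and fall in each of 4 comparisons, the 2 genes on either side of each member, the 5 genes of highest correlation with each (prior count 2), and the most changed called gene of each list. The most abundant family members were named after their values were seen. The defender against cell death list matched no gene. The physiological, metabolite and quantitative RT-PCR measurements were not analysed here.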

Additional observations from a re-analysis of the deposited data

Results flagged for a closer look

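For the 4D gene every TG library was above every CG library and every TY library below every CY library, and the salt changes in roots and leaves differed by 5.76 on the log2 scale. For the 4B gene the libraries were ordered likewise, with a difference of 3.33, but its leaf change missed the threshold (log2 fold change -1.16, edgeR adjusted p = 0.0651). Groups did not overlap for 51.3% of all genes in TG vs CG and 43.1% in TY vs CY. These differences are not presented as tested, because the root comparison may have been used to pick the genes. The 3-MA change under salt differed between tissues for the 4B gene by -3.63 (interaction term, edgeR adjusted p = 0.0162). That call was lost without TMG replicate 1 (-3.49), TMG replicate 2 (-3.21) or TMY replicate 1 (-2.94), with an adjusted p of up to 0.0548. TMG vs TG enters this interaction and may have been used to pick the genes, so its p may not be independent of the pick.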

How the results depend on the processing

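Of the values under settings other than a left-out library, 218 were rated the same, 4 weaker, 5 stronger and 11 moved. For tested fold changes and the 3-MA interaction, the same meant an unchanged direction and call. For TG vs CG, the salt interaction and the pair difference, it meant an unchanged direction and a shift smaller than the SD between libraries. For counts of other family members called, it meant a count of similar size. With limma on log2(FPKM + 1), which shrinks changes of low genes, TMY vs TY for the 4D gene was -1.59 (adjusted p = 0.0638), TMG vs TMY 0.42 (adjusted p = 0.0338) and its 3-MA interaction -2.69 (adjusted p = 0.00976), while the 4B gene gave 1.15 in TG vs CG and a salt interaction of 1.85. With library size as the only scaling, TMG vs TMY of the 4D gene was 2.26 (adjusted p = 0.0314). DESeq2 gave -1.17 for TY vs CY of the 4B gene (adjusted p = 0.0420), and 6 groups in one fit gave 1.11 for its TG vs TY (adjusted p = 0.0623). A filter of CPM 1 in 3 libraries left 9 other family members called in TY vs CY and gave no value for the 4D gene in TMY vs TY and TMG vs TMY. Without gene length the pair difference was 3.54 in CG, 3.66 in TG, 3.72 in TMG, 3.84 in CY and -1.34 in TMY, and with a pseudocount of 0.1 it was 3.17 in CG, 3.54 in TG, 1.99 in TMG and -0.65 in TMY. Causes of these changes were not tested.

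Library size as the only scaling shifted the median of all genes from 0.03 to 0.26 in TG vs CG, 0.02 to 0.37 in TY vs CY, 0.00 to 0.15 in TMY vs TY, and 0.06 to 0.59 in TMY vs CY. Calls went from 13507 higher and 12525 lower to 20020 and 8640 in TG vs CG, from 6348 and 8307 to 14880 and 4750 in TY vs CY, and from 5472 and 6451 to 8204 and 4948 in TMY vs TY. Both metacaspase genes kept their directions.

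Groups share replicate numbers, but same-numbered libraries did not deviate together (correlations of -0.15 to 0.08, with 0 of 27 above 0.1). A replicate block gave 2.14 for TMG vs TMY of the 4D gene (adjusted p = 0.0481) and -2.17 for TMY vs TY of the 4B gene (adjusted p = 0.0833), and TMY vs TY calls over all genes went from 11923 to 6785.

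With each library left out, TMY vs TY ranged from -6.11 to -3.39 for the 4D gene and from -2.72 to -1.63 for the 4B gene, and TMG vs TMY of the 4D gene from 1.43 to 3.53, which was called without TMY replicate 2. TY vs CY of the 4B gene ranged from -1.40 to -0.65. The salt interaction of the 4D gene was 5.33 to 6.97, its 3-MA interaction -2.44 to 0.31, reversing without TMY replicate 2, and that of the 4B gene -4.42 to -2.94. Counts of other family members called were 11 to 19 in TG vs CG, 7 to 12 in TY vs CY and 7 to 16 in TMY vs TY. The pair difference in TMY was -0.25 to 0.0064, the latter without TMY replicate 1. The 1 to 5 counts per TMG library limit the 4B values.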
